A study of Mus musculus with 6 samples.

Results

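The AP-1 and immediate early genes described here are Fos, Fosb, Fosl1, Fosl2, Jun, Junb, Jund, Egr1, Ier2 and Ier3. They were taken by name from the deposited table, which gave 10 genes of 54532. All 10 passed the filter on low counts and were tested. RNA was sequenced in tumour cells of 2208L, a mammary tumour carried in Balb/c mice. The CTC group held 3 libraries from circulating tumour cells, which were propagated from mouse blood. The PT group held 3 libraries from primary tumours that were dissociated and enriched for tumour cells. Every library is labelled as untreated cancer cells, each PT library is labelled as matched to the CTC library of the same number, and neither the age of the mice nor the length of propagation is given in the sources used here. CTC cells were propagated and PT cells came from dissociated tissue, so that handling and group cannot be told apart.

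AP-1 is a dimeric transcription factor made of a Fos family protein with a Jun family protein, or of a pair of Jun family proteins, that meet through a leucine zipper and bind DNA with the adjoining basic region. Its genes include immediate early genes, which are transcribed within minutes of a growth factor, cytokine or stress signal without new protein synthesis, mostly through serum response factor and its partners and through CREB. Fos, Fosb and Egr1 are typical members of the brief first wave, while Fosl1 (encoding FRA-1) and Fosl2 (encoding FRA-2) are induced later and can remain expressed under sustained ERK signalling. In mammary cancer cells FRA-1 is known for its association with migration and invasion. The deposited table annotated 7 of the 10 as bZIP factors and 1, Egr1, as a zinc finger factor.

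RefSeq windows (GRCm38.p6) matched 7 of the 10 members. The stretches of Fos, Fosb, Jun and Junb from position -120 to -21, counted from the RefSeq start, are shown. Each holds the letters of a motif of CREB, AP-1 or EGR proteins, and whether these proteins act there was not tested. Capitals mark the motifs found by search on both strands. TGACG is the core of the cyclic AMP response element. The AP-1-like site of the Jun promoter is TGACATCA, the EGR site is GCGGGGGCG and the TATA box is TATAAA.
Fos, chr12:85473770-85473869, plus strand: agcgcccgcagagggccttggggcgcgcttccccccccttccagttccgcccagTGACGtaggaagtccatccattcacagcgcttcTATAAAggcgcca
Fosb, chr7:19310066-19310165, minus strand: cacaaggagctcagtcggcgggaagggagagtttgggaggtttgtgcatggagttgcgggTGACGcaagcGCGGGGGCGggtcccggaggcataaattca
Jun, chr4:95052243-95052342, minus strand: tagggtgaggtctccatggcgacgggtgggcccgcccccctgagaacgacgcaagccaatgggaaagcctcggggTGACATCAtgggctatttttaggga
Junb, chr8:84978769-84978868, minus strand: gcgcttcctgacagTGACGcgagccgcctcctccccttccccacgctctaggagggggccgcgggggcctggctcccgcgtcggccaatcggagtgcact

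The Fos core element lay at -66 to -62 and its TATA box at -33 to -28, and a further TGACG lay at -129 to -125, outside the stretch shown. In Fosb the core element at -60 to -56 was followed by the EGR site at -50 to -42, and the Fosl2 window held the same EGR letters at -79 to -71. The AP-1-like site of Jun lay at -45 to -38, and the core element of Junb at -106 to -102. Of 32851 RefSeq windows searched over the same 250 bases, TGACG was found in 17.8%, TGACATCA in 2.93%, GCGGGGGCG in 2.57% and TATAAA in 12.4%. The full cyclic AMP response element TGACGTCA, found in 1.55% of all windows, the AP-1 site TGANTCA, found in 6.75%, and the CArG box of serum response factor, found in 1.47%, had no match in the windows of these 7 genes. Bases more than 250 before the start were not searched, so any site there would have been missed. TGACG is contained in TGACGTCA. Among the 7 genes the RefSeq start was that of the deposited gene for Fos and Jun only. For Fosb, Junb and Ier3 it lay nearby. The Ier3 stretch from -120 to -21, chr17:35821593-35821692, ran past the deposited start at 35821684. The difference was larger for Jund and Fosl2. The Jund stretch from -120 to -21, chr8:70697619-70697718, lay well upstream of the deposited start at 70698949. That of Fosl2, chr5:32136352-32136451, lay inside the deposited gene, which starts at 32135801. The matches are letters in a sequence, and binding was not measured.

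Library totals ranged from 23845953 to 27897320 counts, and 3 counts, the limit that a count of 0 allows, corresponded to at most 0.129 CPM, the count as a share of the library total scaled by TMM so that libraries can be compared. The lowest member level, of Fos in CTC replicate 2, was 50 counts, so none of the members was near that limit. The epithelial identity of the cells was borne out by the markers Epcam, Krt8, Krt18, Cdh1, Cldn4 and Krt19, which had a sum of 2070 to 5380 CPM in the CTC libraries and 3690 to 4440 CPM in the PT libraries. Krt19 was at 0 counts in replicate 3 of both groups. Of 6 leukocyte genes 3 (Cd52, Laptm5 and Tyrobp) were at 0 counts in every library, and the 6 summed to at most 2.58 CPM. In bulk RNA, fewer cells expressing a gene and less RNA per cell cannot be told apart, which holds for every level below.

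Of the 10 genes, only Fosl1 lay entirely apart between the groups, with a CTC mean of 115.3 CPM against a PT mean of 51.7 CPM. Fos and Egr1 were lower on average in CTC and varied most between libraries, while Junb was nearly the same in all 6. No member passed the test across all genes. With the quasi-likelihood test of edgeR on the counts of 13874 genes, 0 of 10 members had a Benjamini-Hochberg adjusted p under 0.05, and the share of all genes called was 0%. DESeq2 called 0 members where it called 0.524% of genes, and with a term for the matched libraries it called 0 members where it called 1.84% of genes. At an unadjusted p under 0.05 edgeR, DESeq2 and limma-voom each gave 1 member, Fosl1, and edgeR and DESeq2 with the matched libraries as a block each gave 2, Fos and Fosl1. Among the genes tested in edgeR, the share at an unadjusted p under 0.05 was 6.62% in edgeR, 7.36% in DESeq2 and 6.63% in limma-voom. With the block it was 6.51% in edgeR and 10.2% in DESeq2. All p-values measure the spread between these libraries.

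**Figure D1:**
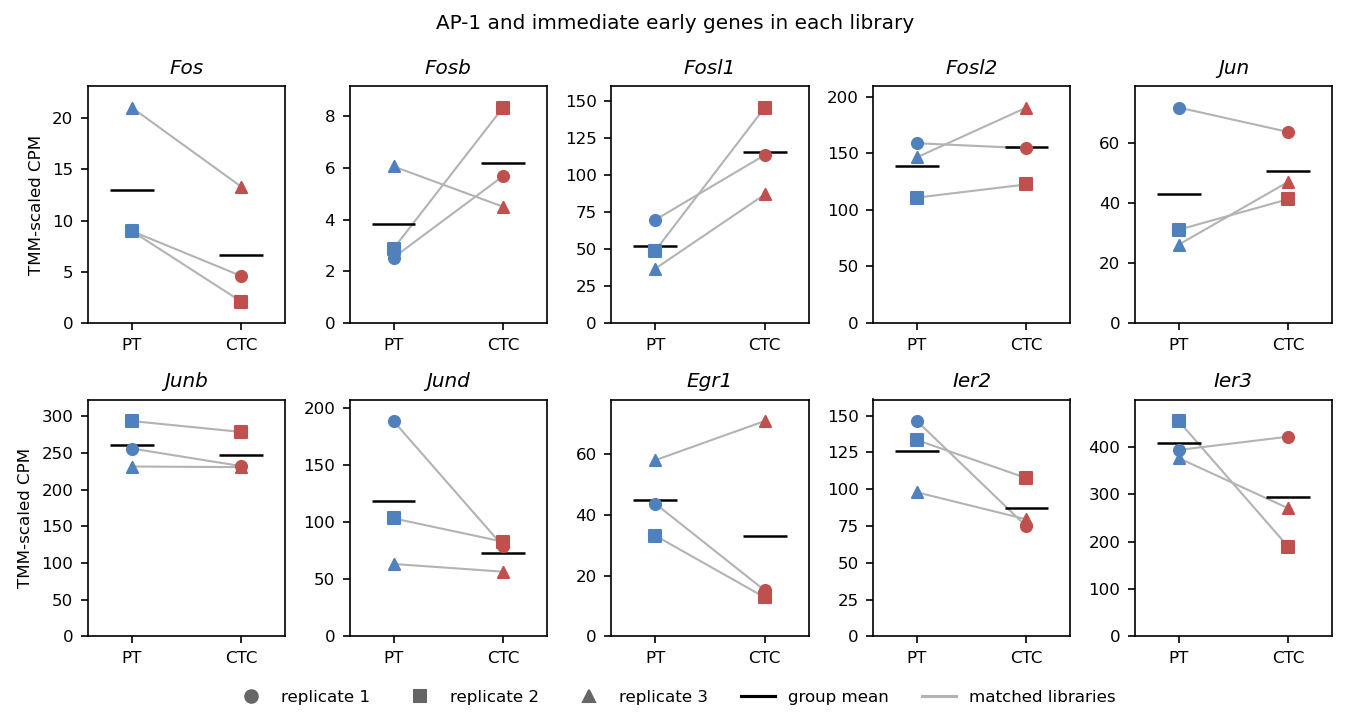
TMM-scaled CPM (vertical axes, from 0) of each of the 10 genes in the 3 PT and 3 CTC libraries, with a symbol for each replicate number, a grey line between matched libraries and a black bar at each group mean. Fosl1 is the gene whose groups do not overlap, with PT from 36.7 to 69.7 CPM and CTC from 86.8 to 145.6 CPM.

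Fosl1 (ENSMUSG00000024912, chromosome 19, 5447703 to 5455945, GRCm38, plus strand) was at 113.5, 145.6 and 86.8 CPM in CTC replicates 1, 2 and 3. In PT it was at 69.7, 48.8 and 36.7 CPM. Every CTC library lay above every PT library, as it did for 5.95% of all genes tested, and CTC was higher than its matched PT library in each of the 3 pairs, as for 15.4% of genes. The group means were 115.3 ± 29.4 and 51.7 ± 16.7 CPM (SD, n = 3 each), which the fit put at 1.16 on the log2 scale (SE 0.33, 95% interval 0.39 to 1.92). The edgeR adjusted p was 0.726, so that the difference did not pass the test across genes, and over the 17 alternatives the adjusted p ran from 0.0664 to 1. The 0.0664 came from DESeq2 with the matched libraries as a block. By unadjusted edgeR p, Fosl1 ranked 99 of 13874 genes. Its log2 fold change stayed between 0.89 and 1.46 whichever library or matched pair was left out. The 148 genes tested within 2 Mb of it had median deviations from -0.14 to 0.24 on the log2 scale per library and a median log2 fold change of -0.091. The sum of the macrophage markers was highest in CTC replicate 2, as Fosl1 was, and its part in the level of Fosl1 was not tested. The sums were 10.1, 23.5 and 3.87 CPM in CTC beside 3.03, 4.76 and 1.16 CPM in PT, and Adgre1 and C1qa were at 0 counts in every library. The peak was Csf1r alone, with 488 counts in CTC replicate 2, where Cd68 had 76 counts against 127 and 91 in CTC replicates 1 and 3.

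Fos (ENSMUSG00000021250, chromosome 12, 85473890 to 85477273), the prototype of the family, was at 4.58, 2.08 and 13.3 CPM in CTC replicates 1, 2 and 3. In PT it was at 8.97, 8.97 and 21.04 CPM. The groups overlapped, since CTC replicate 3 lay above PT replicates 1 and 2, yet within each matched pair the CTC library was the lower, as for 15.4% of genes. The log2 differences within pairs were -0.96, -2.06 and -0.66. The fitted log2 fold change was -0.96 (SE 0.70, 95% interval -2.60 to 0.67, edgeR adjusted p = 0.765). In edgeR it was -1.96 without CTC replicate 3, -0.54 without CTC replicate 2 and -0.43 without PT replicate 3. DESeq2, which was refitted without each library for Fos and Fosl1 alone among the members, gave Fos an adjusted p of 0.0284 without CTC replicate 3 and from 0.83 to 1 without any of the others. Over the 17 alternatives run on all members the adjusted p of Fos ran from 0.2 to 1.

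Fosb, which like Fos carries a transactivation domain, was the least abundant member at 2.53 to 8.34 CPM. Its counts were 160, 200 and 115 in CTC and 66, 67 and 146 in PT. CTC replicates 1 and 2 were above their matched PT libraries, with log2 differences of 1.14 and 1.51, and CTC replicate 3 was below its own, at -0.42. The fitted log2 fold change of 0.69 (95% interval -0.50 to 1.88) did not pass, and leaving out CTC replicate 2 gave 0.40, leaving out PT replicate 3 gave 1.19. The 47 genes tested within 2 Mb of Fosb, on chromosome 7, had a median log2 fold change of -0.58, opposite in sign. Fosl2, which lacks such a domain as Fosl1 does, was at 154.6, 122.6 and 190.6 CPM in CTC, and PT had 159.0, 110.9 and 146.6 CPM. The groups overlapped widely and the log2 fold change was 0.17 (95% interval -0.47 to 0.81).

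Among the Jun genes none separated the groups. Jun, the strongest transactivator of the family, was highest in replicate 1 of each group, with 63.7 CPM for CTC and 71.8 CPM for PT, and the other 4 libraries lay between 26.1 and 47.1 CPM. CTC was the higher of the matched libraries in replicates 2 and 3, with log2 differences of 0.41 and 0.85, and the lower in replicate 1, at -0.17. The 10 genes tested within 2 Mb of Jun (chromosome 4, 95049034 to 95052222) had a median log2 fold change of 0.50 against 0.24 for Jun itself, with a median deviation of 0.62 in CTC replicate 1 and -0.44 in PT replicate 3. The part of these neighbours in the level of Jun was not tested.

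Junb, often a weaker activator that can oppose Jun, was the steadiest of the 10. It was at 231.9, 278.4 and 230.5 CPM in CTC, and PT had 255.9, 293.3 and 231.4 CPM, a range over all libraries of 0.35 on the log2 scale. The interval of its log2 fold change, -0.64 to 0.49, bounds the difference that these libraries allow. Prdx2, on the opposite strand with 6865 to 12313 counts per library, shares 7.52% of the exonic bases of Junb in GENCODE M21. Nothing states that strand was used in counting, so reads in the shared stretch cannot be assigned. The same holds for the 7.28% of Jun that its antisense gene Junos (8 to 38 counts) shares and the 52.6% of Jund shared with Gm11175, which was at 0 counts in every library. Jund, in contrast, was at 188.3 CPM in PT replicate 1, 103.2 CPM in PT replicate 2 and 63.4 CPM in PT replicate 3. In CTC it was at 78.9, 82.8 and 56.6 CPM. It was lower in CTC within every matched pair, by -1.25, -0.32 and -0.16 on the log2 scale, as were 15.4% of genes, and its fitted log2 fold change was -0.70 (95% interval -1.65 to 0.24). Without PT replicate 1 it was -0.19.

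Levels of different genes were compared after division by the deposited gene length. By TMM-scaled CPM per kb, averaged over the 6 libraries, Ier3 came first with 309.8, followed by Junb (110.2), Ier2 (69.98), Jund (57.3), Fosl1 (48.9), Fosl2 (15.2), Jun (14.7), Egr1 (8.70), Fos (4.18) and Fosb (0.80). Among 12019 protein-coding genes tested, Ier3 ranked 139 by this level, Junb 441, Fosl1 1142, Fos 7430 and Fosb 10446. Neighbours in this order such as Fosl2 and Jun, at ranges of 11.5 to 19.7 and 8.18 to 22.5 CPM per kb, overlapped over the libraries. Ier3 and Junb did not overlap in any library, with minima and maxima of 167.0 to 401.3 and 100.2 to 127.5 CPM per kb.

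Divided by gene length, Fosl1 held the largest share of the Fos family in every library. By CPM per kb, Fosl1 accounted for 77.9%, 85.1% and 66.1% of the Fos family in CTC replicates 1, 2 and 3. In PT it accounted for 66.4%, 64.5% and 46.2%. The means were 76.4% ± 9.60 and 59.0% ± 11.2 (SD, n = 3 each), and the groups met at CTC replicate 3 and PT replicate 1. Fosl2 followed with 19.0% ± 6.48 and 28.4% ± 3.63. Fos itself took 3.51% ± 3.40 in CTC and 11.3% ± 6.92 in PT, where it reached 19.2% in PT replicate 3. Fosb took at most 2.09% in any library. The order depended on the division by length: by CPM alone, Fosl2 had the larger share in every library but CTC replicate 2, and Fosl1 averaged 40.8% ± 11.4 in CTC and 25.0% ± 6.52 in PT. The deposited length of Fosl1, 1707 bases, is shorter than the 2033 exonic bases of GENCODE M21, with which the Fosl1 means became 73.2% and 54.9%.

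The summed levels lay apart between the groups for the Fos family, in which Fosl1 had the largest share, and not for the Jun family. The summed Fos family was at 85.3, 100.2 and 76.9 CPM per kb in CTC, and PT had 61.5, 44.3 and 46.5 CPM per kb, without overlap. Among single genes tested, 5.95% lay entirely higher in CTC. Fosl1 made up 46.2% to 85.1% of this sum, and Fos, Fosb and Fosl2 each overlapped between the groups. By group mean, Fosl1 was at 67.56 CPM per kb in CTC and 30.3 CPM per kb in PT. In the same order Fosl2 was at 16.11 and 14.34, Fos at 2.829 and 5.524, and Fosb at 0.9886 and 0.6121 CPM per kb. A sum without Fosl1 was not formed, and the separation of the Fos family sum is not independent of the difference in Fosl1. The summed Jun family was at 168.1, 183.6 and 148.9 CPM per kb in CTC, and PT had 246.6, 199.1 and 146.7 CPM per kb, with overlap. The ratio of the Fos sum to the Jun sum was 0.508, 0.546 and 0.517 in CTC and 0.249, 0.223 and 0.317 in PT. Fosl1 is part of its numerator and Jund, whose level is uncertain, part of its denominator. The ratio is therefore not independent of the difference in Fosl1. These sums were formed from genes chosen with results of these data known and carry no test. Within the Jun family Junb held the largest share in 5 of 6 libraries, with 64.4% ± 3.89 in CTC and 59.2% ± 12.4 in PT, and in PT replicate 1 Jund (45.8%) was level with Junb (45.1%). Jun took 9.62% ± 2.43 in CTC and 6.54% ± 2.28 in PT. Because 52.6% of the exonic bases of Jund are shared with an antisense gene and the strand setting is not given, the level and share of Jund are uncertain.

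**Figure D2:**
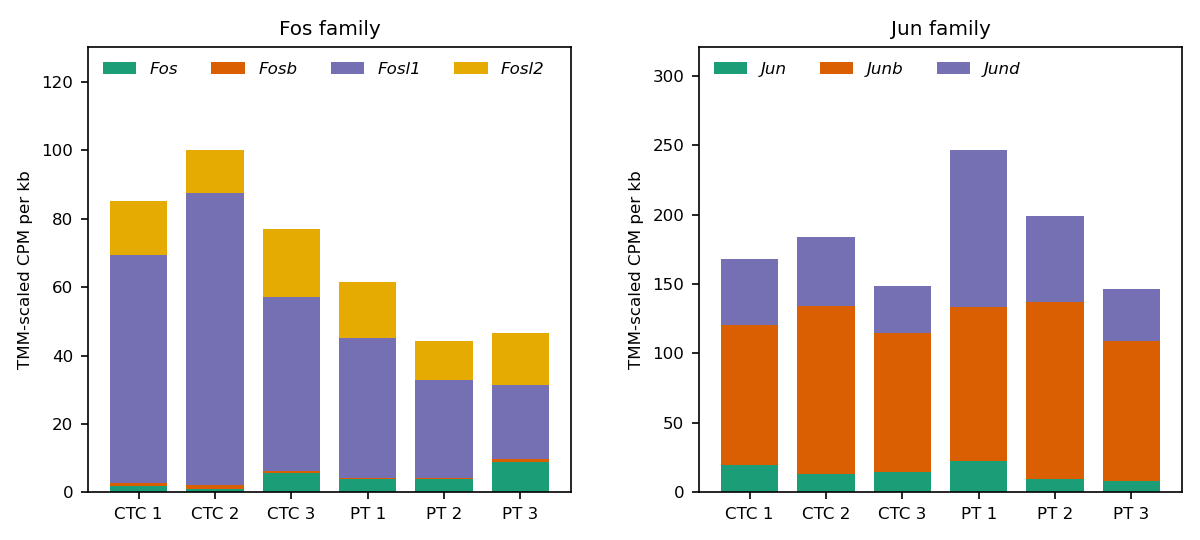
Stacked bars of the TMM-scaled CPM per kb of gene length (vertical axis, from 0) of the Fos family genes (left) and the Jun family genes (right) in each of the 6 libraries. The Fos family bars reach 76.9 to 100.2 in CTC and 44.3 to 61.5 in PT, and Fosl1 is the largest segment in every library.

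Egr1 (ENSMUSG00000038418, chromosome 18, 34859823 to 34864984), a zinc finger factor induced by the same signals as Fos, was at 15.2, 12.9 and 71.0 CPM in CTC replicates 1, 2 and 3. In PT it was at 43.8, 33.2 and 58.1 CPM. CTC replicate 3 was the highest of all libraries and the other CTC libraries were the lowest, so the CTC SD (32.9) was as large as its mean (33.0 CPM). The log2 differences within pairs were -1.53, -1.36 and 0.29. The fitted log2 fold change of -0.45 (95% interval -1.95 to 1.06, edgeR adjusted p = 0.861) was -0.88 with the matched libraries as a block (adjusted p = 0.773). The value rested on single libraries: in edgeR it was -1.69 without CTC replicate 3 (adjusted p = 0.194), -0.066 without CTC replicate 2, -0.11 without CTC replicate 1 and -0.22 without PT replicate 3.

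Egr1 and Fos were both low in CTC replicates 1 and 2 and high in replicate 3 of both groups. After each gene was centred on its mean over the 6 libraries, their profiles differed by a root mean square of 0.40 on the log2 scale, whereas Fos and Fosl1 differed by 1.68, the largest distance of the 45 pairs of members. Closer than Fos and Egr1 were Junb with Ier2 (0.272), Jund with Ier2 (0.345) and Fosl2 with Junb (0.38). Fos and Egr1 were also the members whose log2 CPM spanned at least 2 over the libraries, at 3.29 and 2.46. Of 9395 other protein-coding genes whose log2 CPM averaged 3 or more, those nearest to Fos were Fam3c, Col18a1 and Timp3, at distances of 0.33, 0.34 and 0.36. Genes near to Egr1 by the same measure included Ttc39b, at 0.088, and Dennd4c, at 0.21. These distances rest on 6 libraries and are descriptions. The EGR genes Egr2 and Egr3, singled out after their values were seen, followed the same libraries, with Egr3 at 0.60, 3.17 and 15.0 CPM in CTC, and PT had 10.3, 5.32 and 10.2 CPM. The fibroblast markers were also highest in CTC replicate 3, at 164.0 CPM against 8.91 and 51.5 CPM in CTC replicates 1 and 2, and were at 72.9, 17.6 and 38.3 CPM in PT. Most of the sum in CTC replicate 3 was Col3a1, with 3184 counts, and Pdgfra, with 989, whereas Dcn had 10 counts there against 796 in CTC replicate 2 and 1147 in PT replicate 1. Of these 6 markers Lum was at 0 counts and Col1a1 had at most 44 counts in every library, and their part in the levels of Fos and Egr1 was not tested.

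Ier2, an immediate early gene that encodes a nuclear protein, was lower in CTC within each matched pair, by -0.97, -0.31 and -0.30 on the log2 scale. It was at 74.7, 107.5 and 79.5 CPM in CTC, and PT had 146.3, 133.3 and 97.8 CPM. Only CTC replicate 2 overlapped the PT range, by lying above PT replicate 3. The log2 fold change was -0.53 (SE 0.28, 95% interval -1.16 to 0.11, edgeR adjusted p = 0.726). Ier3, an immediate early gene linked to the control of apoptosis and ERK signalling, was at 420.9, 188.9 and 270.0 CPM in CTC, and PT had 392.9, 453.9 and 375.7 CPM. CTC replicates 2 and 3 were below all PT libraries and CTC replicate 1 was not, and the log2 fold change of -0.47 (95% interval -1.25 to 0.30) did not pass. Leaving out CTC replicate 1 gave -0.83 and leaving out CTC replicate 2 gave -0.25.

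Over the 10 genes, 4 had a positive and 6 a negative fitted log2 fold change, with a median of -0.26, beside 7504 positive and 6370 negative with a median of 0.053 over all genes tested. Of the members, 4 (Fos, Junb, Jund and Ier2) were lower in CTC in all 3 matched pairs, and Fosl1 was higher in all 3, where the background was 15.4% of genes in each direction. For Junb the differences were close to 0, at -0.14, -0.075 and -0.0053 on the log2 scale. No member lay entirely lower in CTC, as 6.16% of genes did.

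**Figure D3:**
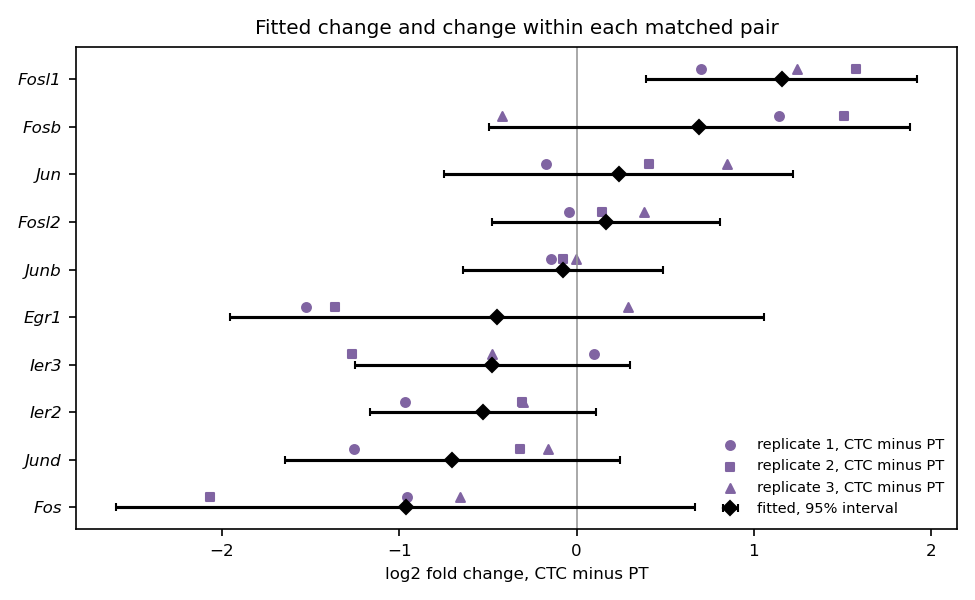
Fitted log2 fold changes, CTC minus PT, of the 10 genes (diamonds, with 95% intervals from edgeR) and the log2 difference within each matched pair of libraries (purple symbols). The interval of Fosl1, 0.39 to 1.92, is the only one of the 10 that lies entirely on one side of 0, before any adjustment over genes.

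The genes that act with or around these 10 were examined as 6 lists, in which edgeR called 0 genes in either direction. The median log2 fold change was -0.098 for 15 tested genes of 17 other immediate early transcription factors, -0.078 for 11 of 13 other bZIP partners, -0.15 for 17 of 18 feedback inhibitors, 0.11 for 18 of 18 upstream kinases and factors, 0.45 for 23 of 25 AP-1 targets and 0.033 for 11 of 11 heat shock genes, beside 0.053 over all genes. These medians depended on single libraries. Without 1 library at a time they ran from -0.21 to 0.058 for the immediate early factors, -0.22 to 0.15 for the bZIP partners and -0.40 to 0.007 for the feedback inhibitors. The upstream genes ran from -0.076 to 0.14 and the heat shock genes from -0.13 to 0.38. At an unadjusted p under 0.05 edgeR gave 2, 0, 4, 2, 3 and 0 genes of these lists, beside 6.62% of all genes tested.

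Of the 15 tested other immediate early factors 2, the Krüppel-like factors Klf6 and Klf2, were higher in every CTC library and 1, Csrnp1, was lower. Of all genes tested, 5.95% lay entirely higher and 6.16% entirely lower in CTC. Klf6 was at 289.9, 76.6 and 80.0 CPM in CTC, and PT had 47.8, 49.1 and 47.8 CPM. Klf2 was at 10.2, 5.63 and 6.69 CPM in CTC, and PT had 2.84, 3.09 and 3.78 CPM. Csrnp1, a nuclear factor of the same wave, went the other way, at 18.6, 16.9 and 21.6 CPM in CTC against 34.9, 23.6 and 28.2 CPM in PT. Each of the 3 had an edgeR adjusted p of 0.726, and that of Klf6 was 0.0385 without the filter on low counts. The log2 fold change of Klf6, 1.63, was 0.70 without CTC replicate 1. Of the bZIP partners, Atf2, which dimerizes with Jun, had a log2 fold change of 0.53, the small Maf gene Mafk 0.32, and Nfe2l2 (NRF2) 0.25, and their groups overlapped. Without CTC replicate 1 Atf2 was at 0.21 and Mafk at 0.03 on this scale, and Nfe2l2 ran from 0.15 without PT replicate 2 to 0.42 without PT replicate 3. Batf was at 0 counts in every library.

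Of the feedback inhibitors, DESeq2 called 1, Spry1, and with the block 2, Spry1 and Dusp10. Over all genes DESeq2 called 0.524%, and 1.84% with the block. Spry1, an inhibitor of receptor tyrosine kinase signalling to ERK, was at 30.8, 34.6 and 26.2 CPM in CTC, and PT had 76.7, 171.1 and 77.8 CPM. It was lower in every CTC library, with a log2 fold change of -1.83 (SE 0.38). The adjusted p was 0.726 in edgeR, 0.0145 in DESeq2 and 0.000308 in DESeq2 with the matched libraries as a block, and without CTC replicate 1 that of DESeq2 was 0.0885. Without the filter on low counts the edgeR adjusted p of Spry1 was 0.00809. Dusp6, the phosphatase of ERK, was at 49.0, 60.2 and 119.2 CPM in CTC, and PT had 116.5, 213.9 and 134.7 CPM, lower in each pair but overlapping. Socs3, an inhibitor of JAK and STAT signalling, was at 23.5, 47.7 and 108.4 CPM in CTC, and PT had 140.5, 142.8 and 141.5 CPM, without overlap. Of the 17 tested feedback inhibitors 2, Spry1 and Socs3, lay entirely lower in CTC and 0 entirely higher. The shares over all genes tested were 6.16% and 5.95%. Dusp10, a phosphatase of JNK and p38, had a log2 fold change of 1.76 and passed in DESeq2 with the block alone (adjusted p = 0.0216), though its groups overlapped and its edgeR log2 fold change was 0.97 without CTC replicate 1.

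Upstream of the immediate early genes, Elk3, a partner of serum response factor, was higher in every CTC library, at 253.2, 160.9 and 85.4 CPM against 54.4, 79.4 and 61.5 CPM in PT. The kinase gene Rps6ka3 (RSK2) was at 89.2, 76.7 and 76.7 CPM against 51.5, 44.2 and 65.6 CPM, also without overlap. Mapk3, which encodes ERK1, was at 110.8, 145.9 and 94.7 CPM in CTC, and PT had 300.4, 222.7 and 119.8 CPM, lower in each pair but overlapping. None of these 3 passed in edgeR (adjusted p = 0.726 for each) or in DESeq2. Of the 18 genes of this list 3, Elk3, Rps6ka3 and Map2k1, lay entirely higher in CTC and 1, Mapk7, entirely lower. The shares over all genes tested were 5.95% and 6.16%.

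CTC replicate 1 held the highest level of 11 of the 23 tested AP-1 targets, beside 24.6% of all genes tested. The median log2 fold change of the targets, 0.45, was -0.035 without that library and between 0.37 and 0.54 without any other single library. Plau, the urokinase gene, was at 470.2, 126.6 and 40.5 CPM in CTC, and PT had 26.5, 39.0 and 47.5 CPM. DESeq2 called it (adjusted p = 0.0352, log2 fold change 2.47), with a log2 fold change of 1.15 and an adjusted p of 1 without CTC replicate 1. With the matched libraries as a block DESeq2 gave 1.82 and an adjusted p of 0.176, so the call was lost. That call was also absent without CTC replicate 2 or any PT replicate, with adjusted p-values from 0.132 to 0.458. In edgeR the adjusted p of Plau was 0.726, and 0.00626 without the filter on low counts. Cyr61, a matricellular protein gene chosen after its values were seen, reached 1442 CPM in CTC replicate 1, and its next highest library, PT replicate 3, had 178.4 CPM. The membrane protease gene Mmp14 was higher in every CTC library, at 198.3, 126.0 and 117.0 CPM against 93.5, 80.7 and 88.4 CPM. Ccnd1 (cyclin D1), by contrast, was lower in every CTC library, at 747.0, 570.2 and 452.4 CPM against 895.7, 928.8 and 1115 CPM in PT. Of the 23 tested targets 2, Mmp14 and Hmga2, lay entirely higher in CTC and 1, Ccnd1, entirely lower. Over all genes tested these shares were 5.95% and 6.16%. Fosl1 itself was at its highest in CTC replicate 2 and not in CTC replicate 1.

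The heat shock genes, which like immediate early genes answer to stress, overlapped between the groups for all 11. Of all genes tested, 5.95% lay entirely higher and 6.16% entirely lower in CTC, so few of 11 would be apart at those shares. Hsp90aa1, Dnaja1 and Hspa1b had log2 fold changes of 0.86, 0.58 and 0.41. That of Hsp90aa1 was 0.31 without CTC replicate 1 and that of Hspa1b was 0.12 without PT replicate 2 and 0.77 without PT replicate 1. Hspa1b can share reads with its near-identical neighbour Hspa1a, so that its level is uncertain.

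**Figure D4:**
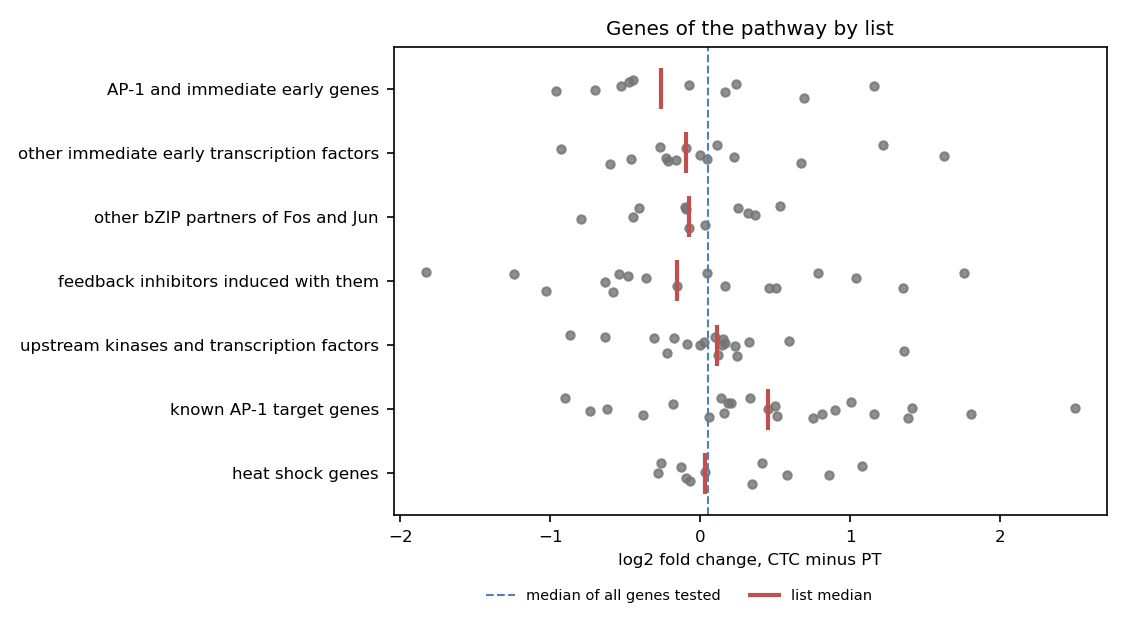
Fitted log2 fold changes, CTC minus PT, of each tested gene (grey points) in the AP-1 and immediate early genes and in 6 lists of related genes, with list medians (red) and the median of all 13874 genes tested (dashed, 0.053). The AP-1 targets have the highest median, 0.45, which was -0.035 without CTC replicate 1.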

How the data were processed

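The authors deposited 1 table of raw counts per Ensembl gene, whole numbers in 6 columns named for the libraries, with a gene length in bases. HISAT2 and the builds GRCm38 and mm10 are named per the submitters' processing notes. Version, counter, strand setting and annotation: not given in the sources used here. Per the labels' protocols, 100 ng of total RNA entered an mRNA library kit.

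Counts were tested with edgeR (version 4.0.16, R version 4.3.3) by glmQLFit and glmQLFTest after TMM scaling and filterByExpr, group as the only term, with Benjamini-Hochberg adjustment over 13874 genes. The standard error is the log2 fold change divided by the root of F, and log2 CPM used a prior count of 2. DESeq2 (version 1.42.0) was run on all genes with its independent filtering set to 0.05, and limma-voom used limma version 3.58.1. The tests were checked on simulated counts with changes larger than those fitted for the members. That check therefore does not measure how often changes of the members' size would be found. No 2 libraries were alike within sampling noise (chi-square per degree of freedom at least 100).

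Same-numbered libraries are matched by their titles, and their deviations from group means correlated across genes at -0.015, 0.157 and 0.298 for replicates 1, 2 and 3. A replicate block, other scalings and filters, and leaving out libraries or pairs were alternatives. Members and lists were chosen with earlier results of these data known. From each list the rule named the 3 genes of smallest edgeR p and those passing in DESeq2. Fosl1 coordinates and length differ from GENCODE M21, and those of the other 9 members match it. One gene that the profile rule named is not reported here.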

Additional observations from a re-analysis of the deposited data

How the results depend on the processing

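The number of members called stayed at 0 under all 17 alternatives. The number of genes called, 0 as reported, was 199 without a filter on low counts, 87 in DESeq2, 253 in DESeq2 with a replicate block and 0 in edgeR with a replicate block; the causes were not tested. The median of the members, -0.26 as reported, ran from -0.226 to -0.069 without single libraries and was -0.066, -0.135 and -0.295 without matched pair 1, 2 and 3. Leaving out libraries changed the sign for 3 genes near 0: Fosl2 (-0.005 to 0.303, negative without CTC replicate 3), Junb (-0.18 to 0.004, positive without PT replicate 2) and Jun (-0.024 to 0.827, negative without PT replicate 3). The replicate block changed no member's call and gave log2 fold changes of 1.18 for Fosl1 and -1.23 for Fos. The other 7 members kept their sign under all 17 alternatives. With 3 libraries a group, the interval of Fos spans both a decrease and an increase. Alternatives for the related lists and the GENCODE length were chosen after seeing the data.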
